A study of Mus musculus with 6 samples.

Results

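Expression of 10 genes of Toll-like receptor signalling was read in 6 Hepa1-6 tumors, namely the receptors Tlr1, Tlr2, Tlr4, Tlr6, Tlr7, Tlr8 and Tlr9, the co-receptors Cd14 and Ly96 (MD-2), and the adaptor Myd88. Members were chosen by name, as every non-control array probe whose gene name equals one of these symbols. This gave 11 probes for 10 of the 27573 genes on the array. Hepa1-6 is a mouse hepatoma line, grown here as subcutaneous tumors of C57Bl/6 females. They were taken on day 10 after inoculation (302, 307 and 312) or on day 15 (303, 313 and 318), with no other treatment in the labels. Each tumor's RNA carried Cy5 on 1 two-colour Agilent array, and Cy3 carried a common reference, per the labels RNA from the blood of a C57Bl/6 female without treatment. Whole tumors were extracted, so host cells and hepatoma cells are measured together. Neither the ages of the mice nor the mouse behind each tumor is given in the sources used here, and p-values therefore measure the spread between these tumor samples.

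Toll-like receptors are innate immune receptors that bind microbial molecules and some molecules of damaged cells. Tlr2 pairs with Tlr1 or Tlr6 at the cell surface to bind lipopeptides. Tlr4 binds lipopolysaccharide with MD-2 after CD14 has handed it over. Tlr7, Tlr8 and Tlr9 sit in endosomes and sense nucleic acids. All these receptors signal through Myd88, which recruits IRAK kinases and leads to NF-kappaB. In most tissues they are best known from macrophages, dendritic cells, B cells and neutrophils.

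In the tumors, 7 of the 10 genes were higher than the reference and none was lower, and no gene differed between day 10 and day 15 beyond the spread between tumors. Tlr7 and Tlr1 had the largest ratios to the reference, Tlr6, Tlr2, Tlr9, Cd14 and Myd88 followed, and the lipopolysaccharide receptor Tlr4 and its partner Ly96 lay near the level of the reference. The tumors were not alike: tumor 303 had the highest Tlr2 and Cd14 ratios and the lowest Tlr1 and Tlr6 ratios of all 6.

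Some features of the arrays bear on these values. Between 52.4% and 58.5% of spots were well above background (the scanner software's own mark) in Cy5 and 47.5% to 52.8% in Cy3. An area with lost signal on the array of tumor 312 held 16.1% of its spots, among them the only Tlr7 spot, 2 of 10 Myd88 spots and 1 of 10 Tlr4 spots. Tumor 313 stood apart in hepatoma markers, with a median log2 ratio of -2.31 over 8 genes against 2.25 to 3.1 in the other tumors. Of these genes Gpc3 did not fall, at 5.13 in tumor 313 against 4.73 to 5.48 in the others. The reference did not look like its label in all respects. Its Cy3 signal passed the background mark on all 6 arrays for 7 of 8 hepatoma markers, but for only 1 of 9 neutrophil markers and 2 of 8 B cell markers, and it passed on none for 5 of those neutrophil and 3 of those B cell markers. The haemoglobin gene Hba-a1, looked at after the other values were seen, was above the reference in every tumor, by 3.56 to 3.94 on the log2 scale. Ratios are therefore ratios to this reference RNA, not to blood in general.

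The question of the first comparison was which receptor genes the tumor tissue held above or below the reference. A gene was called where limma's adjusted p was under 0.05 and the log2 ratio at least 1 in size. By this rule 7 of 10 genes were higher, while 25.5% of all 16286 genes tested were higher and 9.77% lower. All 10 passed the filter on dim probes, Tlr8 only just, with 3 arrays above background in Cy5. The median log2 ratio of the 10 genes was 2.05, and that of all genes tested was 0.22. Above 0 in all 6 tumors were 8 of the 10 genes, against 43.3% of all genes. In whole tissue, more cells of a type and more RNA per cell cannot be told apart.

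**Figure D1:**
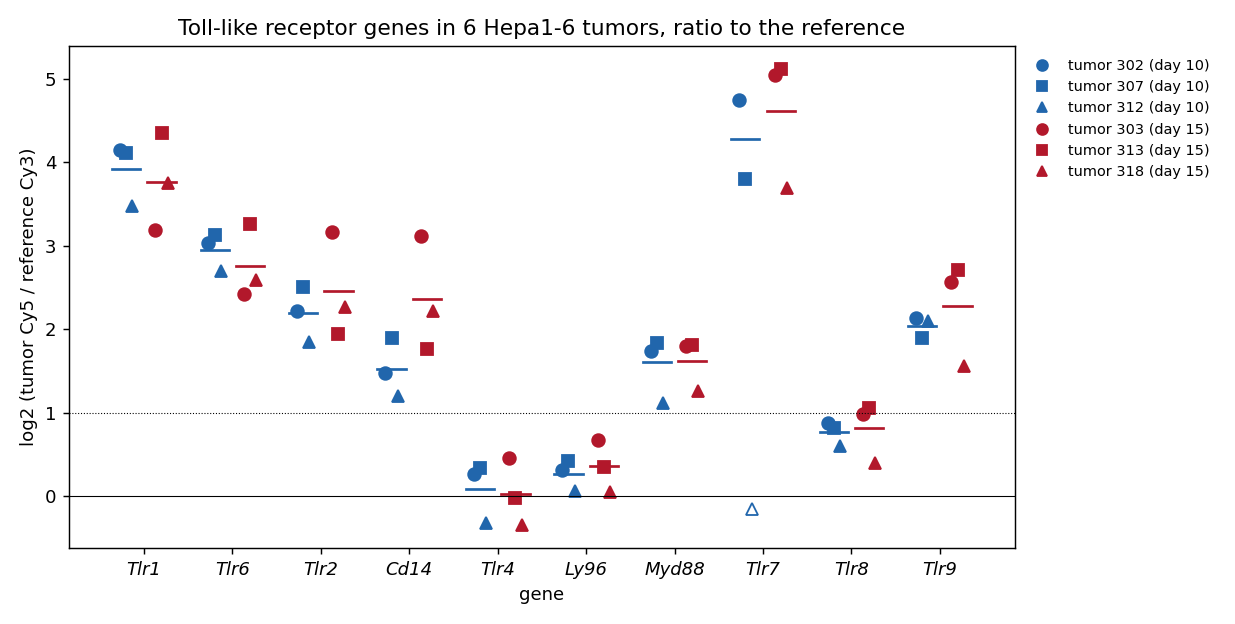
Log2 ratio of tumor (Cy5) to reference (Cy3) for each gene, 1 point per tumor, blue for day 10 and red for day 15, with a bar at the mean of each day. The solid line marks a log2 ratio of 0, where tumor and reference are equal, and the dotted line a log2 ratio of 1. The open triangle is the Tlr7 spot of tumor 312 in the area of lost signal, which the bar leaves out. Tlr1 and Tlr7 lie highest, Tlr4 and Ly96 lie around 0, and the days overlap for every gene.

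Among the surface receptors, Tlr1 had a log2 ratio of 4.15, 4.11 and 3.48 in day 10 tumors 302, 307 and 312, and of 3.19, 4.35 and 3.75 in day 15 tumors 303, 313 and 318. The mean was 3.84 ± 0.45 (SD, n = 6), which is 14.3-fold (95% interval 10.8 to 18.9), and limma's adjusted p was 4.3e-06. Every tumor lay far above the reference, and the ranges of the days overlapped. Behind these ratios stood raw Cy5 signals of 1495 to 3554 and Cy3 signals of 209 to 379. Tumor 303, with the lowest ratio, also had the highest Cy3 signal, 379 against 209 to 269 on the other arrays. With Cy5 alone, quantile-normalized between arrays, Tlr1 in tumor 303 (10.97) lay between tumor 318 (10.89) and the other tumors (11.11 to 11.47), so its lowest place holds for the ratio and not for the tumor signal.

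Tlr6, the other partner of Tlr2, gave 3.03, 3.13 and 2.70 at day 10 and 2.42, 3.26 and 2.59 at day 15. Its mean was 2.86 ± 0.33 (SD, n = 6), or 7.24-fold (95% interval 5.85 to 8.95, limma's adjusted p = 4.8e-06). The order of the tumors was close to that of Tlr1, with tumor 313 highest and tumor 303 lowest for both genes. Here tumor 303 was lowest in Cy5 alone too, at 9.67 against 9.93 to 10.54. The gap between the Tlr1 and Tlr6 ratios stayed between 0.77 and 1.15 in all 6 tumors (mean 0.98 ± 0.17, SD). Tlr1 and Tlr6 lie next to each other on chromosome 5, with no other gene between them in the RefSeq table.

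Tlr2, the shared partner of both, gave 2.22, 2.50 and 1.85 at day 10. Its ratios were 3.17, 1.94 and 2.27 at day 15, with a mean of 2.33 ± 0.47 (SD, n = 6). This is 5.01-fold (95% interval 3.76 to 6.67, limma's adjusted p = 4.0e-05). Tumor 303 lay above the other 5 tumors, in which the ratio ran from 1.85 to 2.50. In tumor signal alone it was highest as well, at 13.58 against 12.30 to 12.85. Set against its partners, Tlr2 moved differently: the Tlr1 ratio exceeded that of Tlr2 by 1.48 to 2.41 in 5 tumors and by 0.02 in tumor 303. The Tlr6 ratio exceeded that of Tlr2 by 0.33 to 1.32 in the same 5 tumors and was 0.75 below it in tumor 303 (a gap of -0.75). These gaps are differences between log2 ratios within a tumor and not between levels of the genes.

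Promoter sequences of Tlr1 and Tlr6, which kept a steady gap, of their partner Tlr2, which did not, and of the common adaptor Myd88 are given here for comparison. Each is the 250 bases before a start site in RefSeq's GRCm38.p6, 5' to 3' on the gene's strand, with matches to the motifs described next in capitals.
Tlr1, chr5:64933559-64933808, minus strand: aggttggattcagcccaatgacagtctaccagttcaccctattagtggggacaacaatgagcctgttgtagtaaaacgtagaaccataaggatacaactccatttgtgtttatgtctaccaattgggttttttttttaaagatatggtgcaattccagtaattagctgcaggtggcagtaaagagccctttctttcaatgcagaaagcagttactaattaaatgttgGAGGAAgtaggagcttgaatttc
Tlr6, chr5:64959167-64959416, minus strand: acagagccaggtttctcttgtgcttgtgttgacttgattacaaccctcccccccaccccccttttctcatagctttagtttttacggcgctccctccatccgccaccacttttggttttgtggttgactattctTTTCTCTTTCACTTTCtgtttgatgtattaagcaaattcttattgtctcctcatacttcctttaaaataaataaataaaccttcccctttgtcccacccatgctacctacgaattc
Tlr2, chr3:83841609-83841858, minus strand: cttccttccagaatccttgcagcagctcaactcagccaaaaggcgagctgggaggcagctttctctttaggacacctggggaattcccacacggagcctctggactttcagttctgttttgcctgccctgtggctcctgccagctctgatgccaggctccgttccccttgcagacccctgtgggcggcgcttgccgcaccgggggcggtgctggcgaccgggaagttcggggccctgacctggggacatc
Myd88, chr9:119340019-119340268, minus strand: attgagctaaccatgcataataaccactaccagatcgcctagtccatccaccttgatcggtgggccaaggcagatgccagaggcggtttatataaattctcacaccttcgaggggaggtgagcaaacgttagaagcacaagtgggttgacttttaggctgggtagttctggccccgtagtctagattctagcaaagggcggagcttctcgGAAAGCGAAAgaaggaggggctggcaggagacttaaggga

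Of the 10 genes, 6 had windows that could be used, 8 windows in all, each running from 250 bases before the start to 50 after. Searched on both strands, the PU.1-type motif GAGGAA was in 3 of the 8 windows, 1 each of Tlr1, Tlr8 and Tlr9, and in 28.3% of 32851 mouse windows of the same length. PU.1 is a transcription factor of myeloid and B cells. The interferon-response-type motif (GAAA, any 2 bases, GAAA) was in 2 of the 8, 1 each of Tlr6 and Myd88, and in 3.44% of all windows. In Tlr6 a pair of matches overlapped (bases -116 to -107 and -110 to -101 from the start), and in Myd88 the match lay at bases -40 to -31. The NF-kappaB-type motif (GGG, any 2 bases, TTTCC) was in 0 of 8 windows and in 1.63% of all. That count holds for this exact pattern only, and looser forms were not searched. The Tlr2 window printed above holds GGGAATTCCC, which differs from the pattern at 1 base and so was not counted. Tlr1 and Tlr6 each had a second window, not printed, which held no match to any of the 3 motifs. These are matches of letters in a window, and nothing in the data measured binding there.

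Of the lipopolysaccharide receptor genes, Cd14, which encodes the co-receptor that delivers the ligand, gave log2 ratios of 1.47, 1.90 and 1.20 at day 10 and of 3.12, 1.76 and 2.22 at day 15. Its mean was 1.94 ± 0.68 (SD, n = 6), or 3.85-fold (95% interval 2.83 to 5.24, limma's adjusted p = 1.1e-04). Its spread was the widest of the 8 genes measured above background in both dyes on every array. Tumor 303 was highest and tumor 318 next, while tumor 313 lay within the range of day 10. Raw Cy5 signal was 15997 in tumor 303 and 12141 in tumor 318, against 3990 to 8470 elsewhere, while Cy3 stayed between 2772 and 3915. Tlr2 and Cd14 shared their highest tumor, and the Tlr2 ratio exceeded that of Cd14 by 0.60 to 0.75 in the day 10 tumors and by 0.04 to 0.18 in the day 15 tumors. Among the pair gaps looked at, only this gap kept the days apart, and no test of it was made. For single genes the values of the days did not overlap in 8.85% of all genes tested. With 3 tumors a day and several gaps looked at, such a split can occur by chance.

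Tlr4 itself, the signalling receptor, was not called, at 0.26, 0.34 and -0.32 at day 10 and 0.46, -0.02 and -0.35 at day 15. Its mean was 0.06 ± 0.35 (SD, n = 6; 95% interval of the log2 ratio -0.27 to 0.39; limma's adjusted p = 0.690). Tumors 302, 307 and 303 lay above 0 and tumors 312, 313 and 318 below it. The sign of the mean depended on the scaling, being -0.69 after median centring without loess and -0.27 with the scanner's processed signals. Loess had placed the median of all genes tested at 0.22, median centring at -0.34 and the scanner's processing at -0.02. Relative to that median Tlr4 lay below it in each, by -0.16, -0.34 and -0.25. Signals of both dyes were well above background on all arrays, with Cy5 at 1172 to 3035 and Cy3 at 2119 to 3551. A second Tlr4 probe, made from a clone sequence, was above background only on the array of tumor 303, there in both dyes, and was not tested.

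Ly96, the MD-2 subunit that binds lipopolysaccharide together with Tlr4, stayed close to it. Its log2 ratios were 0.31, 0.42 and 0.06 at day 10 and 0.67, 0.35 and 0.05 at day 15, with a mean of 0.31 ± 0.23 (SD, n = 6), or 1.24-fold. Limma's adjusted p of 0.0264 passed its threshold, but the size did not, and the sign turned to -0.56 after median centring. Ly96 lay close to the median of all genes under the 3 scalings, at 0.09, -0.21 and 0.04 from it. Tumor 303 was highest for both Tlr4 and Ly96, and tumor 318 lowest. The Tlr2 ratio was 1.96 to 2.70 above that of Tlr4 within each tumor, and the Cd14 ratio 1.13 to 2.45 above that of Ly96.

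Among the endosomal receptors, Tlr7, which senses single-stranded RNA, gave 4.75 and 3.80 in day 10 tumors 302 and 307 and 5.05, 5.12 and 3.69 in the day 15 tumors. The mean of these 5 tumors was 4.48 ± 0.69 (SD, n = 5), and limma's adjusted p was 3.2e-05 with the area of lost signal left out. In tumor 312 the only spot lay in that area and read -0.15, with which the mean was 3.71 ± 1.99 (SD, n = 6) and the adjusted p 0.00138. Cy3 was not well above background on any array, so the ratio to the reference is a bound. Tlr7 was at least 16-fold higher than the reference over 5 tumors, and at least 9.27-fold with tumor 312 included. Such a bound sets the mean tumor signal against the lowest signal that counted as well above background, and without a dye swap it is open to dye bias. Raw Cy5 signals of 1260 to 2563 in these 5 tumors stood against Cy3 signals of 129 to 170.

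Tlr8, the neighbour of Tlr7 on the X chromosome, was dim in both dyes. It read 0.88, 0.82 and 0.60 at day 10 and 0.99, 1.06 and 0.40 at day 15, with a mean of 0.79 ± 0.25 (SD, n = 6). Its Cy5 signal was well above background in tumors 302, 303 and 313 and its Cy3 signal on no array, so no size is given against the reference. Limma's adjusted p was 5.4e-04, but the size fell short of the call. With the scanner's processed signals the ratio was 2.09 and passed both limits, so the call of Tlr8 depends on the processing. An offset of 50, added before logs were taken, pulls the ratios of dim spots towards 0.

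Tlr9, the receptor of DNA rich in unmethylated CpG, was measured in both dyes on every array. It gave 2.13, 1.89 and 2.10 at day 10 and 2.57, 2.71 and 1.56 at day 15, a mean of 2.16 ± 0.43 (SD, n = 6), or 4.47-fold (95% interval 3.44 to 5.80, limma's adjusted p = 3.6e-05). The day 10 tumors lay between 1.89 and 2.13, and the day 15 tumors spanned their range on both sides. Tlr7 and Tlr9 were both high in tumors 303 and 313 and low in tumor 318, with the Tlr7 ratio 1.91 to 2.61 above that of Tlr9 in the 5 tumors where both were measured. Since Tlr7 holds a bound, this gap is a gap of measured values only.

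Myd88, the adaptor that the receptors share, gave 1.74, 1.84 and 1.12 at day 10 and 1.80, 1.81 and 1.26 at day 15. Its mean was 1.59 ± 0.32 (SD, n = 6), or 3.02-fold (95% interval 2.44 to 3.74, limma's adjusted p = 5.6e-05). Tumors 302, 307, 303 and 313 lay between 1.74 and 1.84, and tumors 312 and 318 were lower. Outside the area of lost signal tumor 312 read 1.25, close to tumor 318. After median centring without loess the mean was 0.78 and fell below the size for a call, with an adjusted p of 6.1e-04. Relative to the median of all genes it lay 1.37 above with loess, 1.12 with median centring and 1.34 with the scanner's processing.

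**Figure D2:**
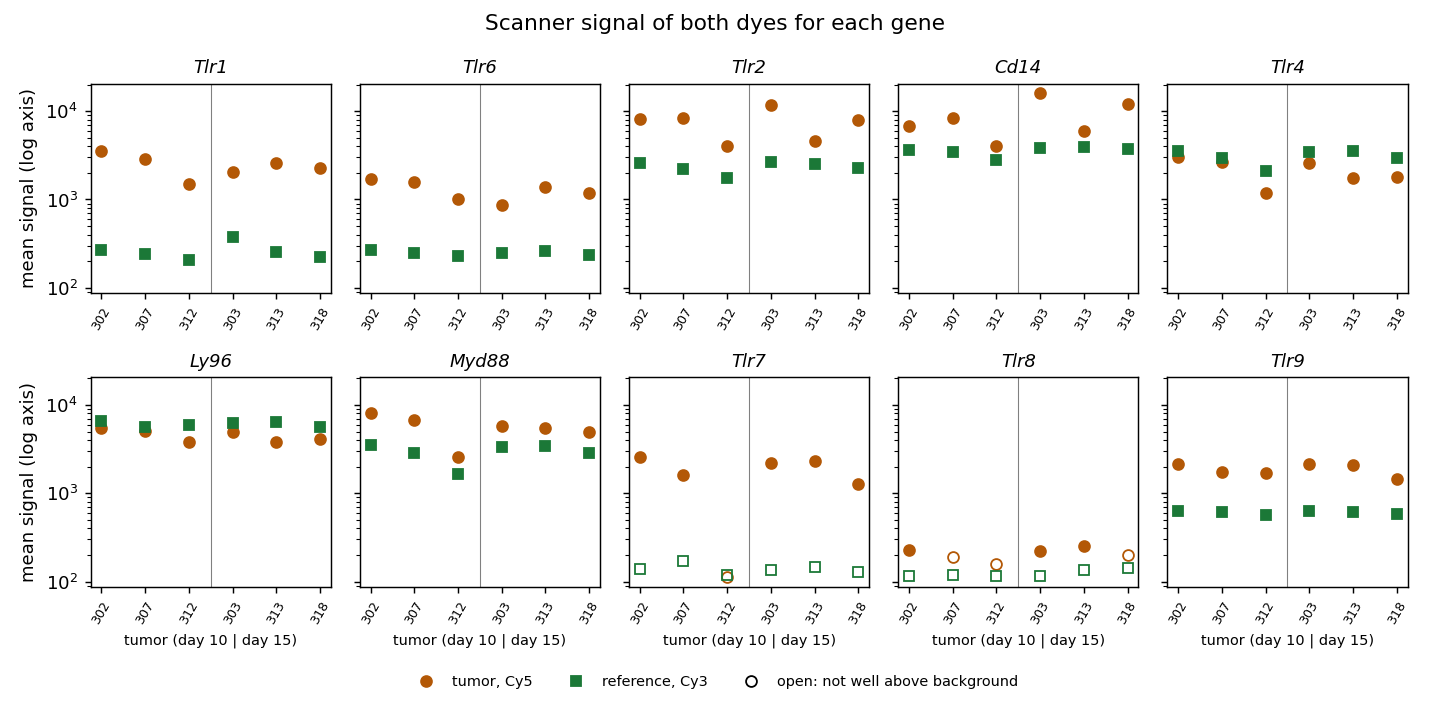
Raw mean signal of the tumor (orange circles, Cy5) and the reference (green squares, Cy3) on a log axis, for each gene and tumor, with open symbols where the signal was not well above background. Reference signals of Tlr7 and Tlr8 are open on all 6 arrays, and the tumor and reference signals of Tlr4 and Ly96 lie close together. Signals of different genes come from different probes and are not to be compared.

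Probes of Tlr2, Tlr4 and Myd88 were printed 10 times on each array, which gives a measure of the error within an array. The SD over spots was 0.038 to 0.057 for Tlr2, 0.030 to 0.085 for Tlr4 and 0.049 to 0.077 for Myd88, outside the area of lost signal. The SD between tumors was 0.47, 0.35 and 0.28, which is 8.36, 4.13 and 3.65 times the highest of these. Differences such as that of Tlr2 in tumor 303 from the other tumors were thus far larger than the error between spots. That measure does not contain errors of labelling or hybridisation, which all spots of an array share. Tlr1, Tlr6, Tlr7, Tlr8, Tlr9, Cd14 and Ly96 had 1 spot each, and for them the error within an array is not known.

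**Figure D3:**
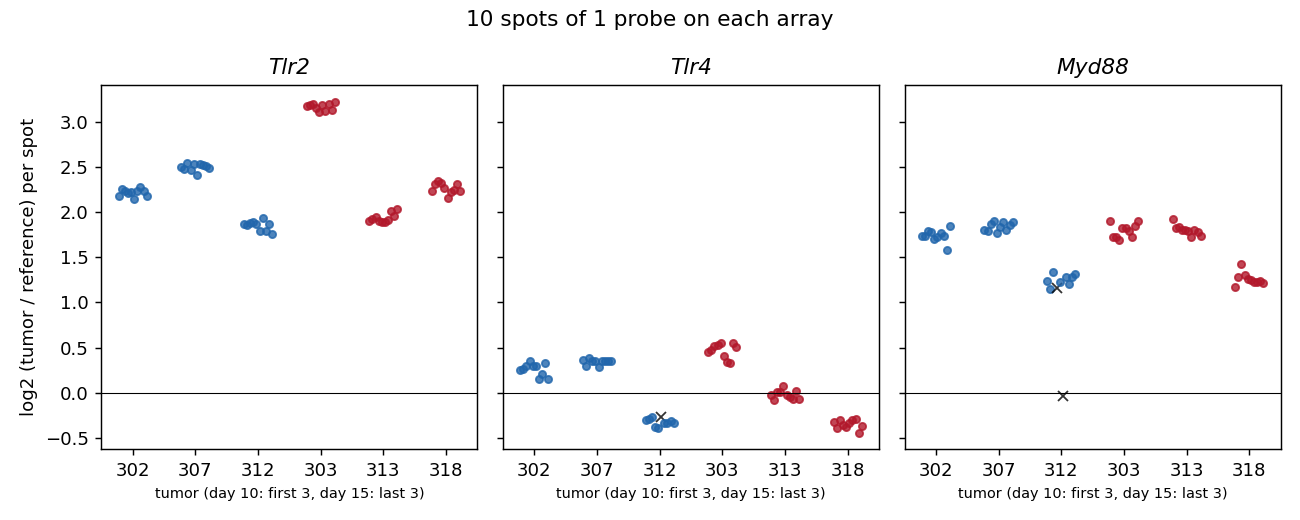
Log2 ratio of each of the 10 spots of the Tlr2, Tlr4 and Myd88 probes by tumor, blue for day 10 and red for day 15, with crosses for spots in the area of lost signal. Spots of 1 array lie close together beside the distances between tumors, and 1 Myd88 spot of tumor 312 in the area lies near 0.

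In order of the mean log2 ratio, Tlr7 (4.48, 5 tumors) stood first, then Tlr1 (3.84), Tlr6 (2.86), Tlr2 (2.33), Tlr9 (2.16), Cd14 (1.94), Myd88 (1.59), Tlr8 (0.79), Ly96 (0.31) and Tlr4 (0.06). Neighbours from Tlr2 to Myd88, as well as Tlr7 and Tlr1, lay closer to each other than the larger of their SDs, so their order is not settled. The means of Ly96 and Tlr4 were as close, although Tlr4 minus Ly96 was below 0 in each tumor (-0.40 to -0.05). The Tlr7 value depends on a reference below background. Tlr1 stayed above Tlr6 in every tumor, as did Tlr2 above Tlr4. The order is one of ratios to this reference, not of amounts of RNA.

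The second comparison asked whether the genes differ between tumors of day 15 and day 10. None of the 10 did at limma's adjusted p under 0.05, and every adjusted p was 1.0, while 0.0570% of 15779 genes tested were called (0.0127% higher and 0.0444% lower). None had an unadjusted p under 0.05 either, against 4.01% of all genes. Of the 10 differences 7 were above 0, beside 55.0% of all genes, and for none of the 10 did the days fail to overlap, beside 8.85%. All arrays of day 10 lay on 1 slide and those of day 15 on another, so slide and day cannot be told apart. In the Cy3 channel, which held the same reference on both slides, 0 of 13898 genes were called between the slides with limma, and 1.51% had an unadjusted p under 0.05. With 3 tumors a day, intervals were wide, and a difference that misses the threshold does not show equal levels.

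Cd14 had the largest difference of the genes measured in all tumors, at 0.85 higher on day 15 (SE 0.37, 95% interval -0.05 to 1.74; limma's adjusted p = 1.0). That was larger than 97.2% of all genes' differences. The tumor channel alone gave 0.80 (SE 0.37) and the reference channel -0.05. In the tumor channel 0 of 15779 genes were called by limma and 3.01% had an unadjusted p under 0.05. The Cd14 difference in the ratio was 0.47 without tumor 303 and 1.15 without tumor 313. It stayed above 0 with each tumor left out. Tlr2 differed by 0.27 (SE 0.35), and without tumor 303 by -0.087. Tumor 303 thus raised both differences, and only that of Tlr2 changed sign without it.

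The other surface receptors leaned the opposite way, with Tlr1 at -0.15 (SE 0.34) and Tlr6 at -0.20 (SE 0.26). Without tumor 303 these were 0.13 and -0.03. Tlr4 (-0.06, SE 0.28), Ly96 (0.09, SE 0.20) and Myd88 (0.06, SE 0.26) were near 0, and so was Tlr8 (0.05, SE 0.22). Tlr9 stood at 0.24 (SE 0.31) in the ratio but at -0.02 in the tumor channel. Median centring turned the signs of Tlr2, Tlr8, Tlr9, Ly96 and Myd88 as it moved the median of all genes from 0.02 to -0.30. Tlr7 differed by 1.82 (SE 1.24) with the spot of tumor 312 included and by 0.34 (SE 0.53) without it. The 95% interval of the latter, -0.97 to 1.66, covers changes in both directions.

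**Figure D4:**
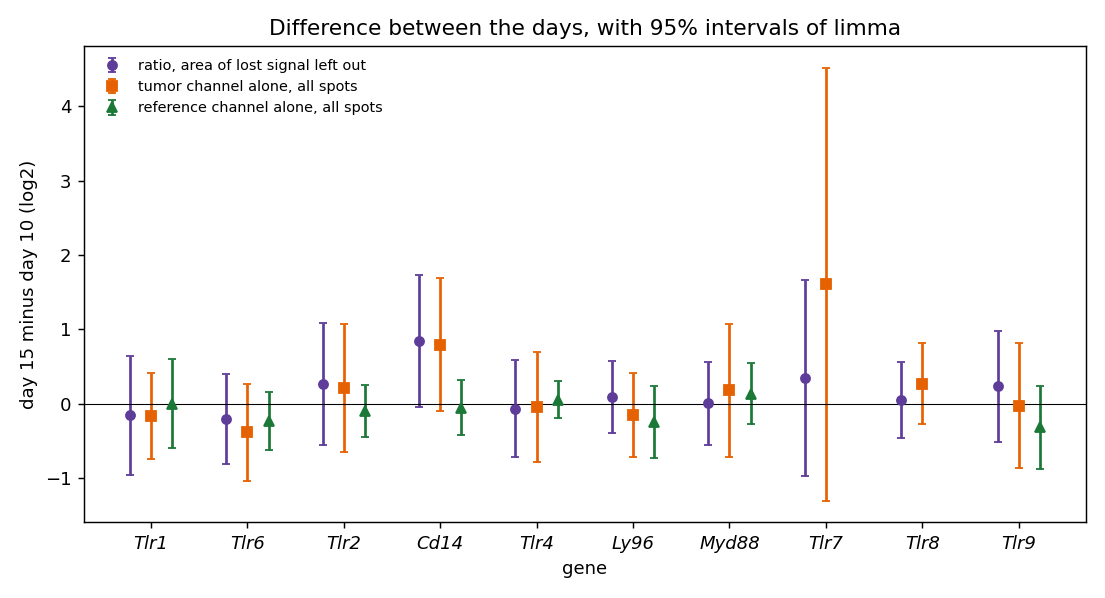
Difference between the days (day 15 minus day 10, log2) with limma's 95% intervals for each gene: the ratio with the area of lost signal left out (purple circles), the tumor channel alone with all spots (orange squares) and the reference channel alone with all spots (green triangles; Tlr7 and Tlr8 were too dim). Every interval covers 0, and that of Cd14 reaches it only just.

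Across the 6 tumors the genes fell into different profiles. Centred on its own mean, each was compared with the others by the root-mean-square difference. Tlr8, dim in both dyes, is left out here. Among the other members Ly96 and Myd88 were closest (0.13), genes that varied little in any tumor. After them came the pairs of Tlr4 with Ly96 and with Myd88 (both 0.15), and then Tlr1 and Tlr6 at 0.16, although each varied more (0.41 and 0.30 around its own mean). The same measure was taken against 142 genes of the pathway and marker lists, or 157 over 5 tumors for Tlr7.

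Nearest to Tlr1 were Ccr7 (0.16), a chemokine receptor of migrating dendritic cells, and Il12b (0.19). Il12b was itself dim, above background on 4 arrays in Cy5 and on none in Cy3. For Tlr6 the nearest were the adaptor gene Ticam1 (0.14) and Traf6 (0.15), a ubiquitin ligase of the pathway. Tlr2 and Cd14 both had Dusp1, a phosphatase gene that dampens MAP kinases, as the nearest (0.16 and 0.27). Second for Tlr2 was the macrophage gene Adgre1 (0.23), and for Cd14 the hepatoma gene Gpc3, at a distant 0.41. Tlr4 was nearest to Tlr3 and Adgre1 (both 0.11). For Tlr7 these were the B cell gene Cd79b (0.20) and Cd36 (0.23), and Tlr9 had Xcr1, a receptor gene of a dendritic cell subset, at 0.17. For Ly96 they were Irf3 (0.11) and C1qa (0.12), and for Myd88 Csf3r (0.10) and Atf3 (0.11). With 6 tumors and over 100 candidates a near match is a description of these samples and carries no test.

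Markers of cell types known to carry these receptors were read in the same way. All 12 macrophage markers were higher than the reference, with medians of 4.18 to 4.85 per tumor, highest in tumors 303 and 313 and lowest in tumors 312 and 318. Over 12 genes the summed Cy5 signal (log2) was 19.1 to 19.4 on day 10 and 19.0 to 19.7 on day 15, and all 12 were above background in every tumor. Beside 25.5% of all genes called higher and 9.77% lower, monocyte markers were higher in 5 of 5 tested, neutrophil markers in 6 of 8 and other dendritic cell markers in 4 of 7. Of 6 plasmacytoid dendritic cell markers 4 were tested, and those 4 were higher (Tcf4, Bst2, Irf8 and Ly6d). The other two, Siglech and Ccr9, passed the background mark in 1 and 2 tumors and were not tested. B cell markers were higher in 3 of 5 tested and lower in 1. Their medians were highest in tumors 303 and 313 (1.53 and 1.61), the tumors with the highest Tlr7 and Tlr9, and lowest in tumor 312 (0.37). This was not particular to B cells, since macrophage medians were highest in the same tumors. So were the medians of endothelium (4.435 and 4.655, at most 3.985 elsewhere) and fibroblast markers (6.99 and 7.245, at most 6.67 elsewhere). No other marker list had both of these tumors highest. Of the 8 B cell genes, Blk and Fcer2a were not above background in any tumor. Markers of other cell types, not listed for these receptors, were often higher too. The counts were 6 of 7 tested for T and NK cells, 6 of 6 for endothelium and 5 of 6 for fibroblasts. They were 5 of 6 for skeletal muscle and 4 of 8 for hepatoma. Skeletal muscle medians were 3.045 to 4.29 in the day 10 tumors but -0.3 to -0.235 in the day 15 tumors, so those calls rest on day 10. A rise over this reference was thus not particular to cell types known to carry the receptors. What part any of these cells had in the receptor values was not tested.

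The wider pathway was read from a list of 93 other genes, of which 89 had a probe and 84 were tested. Against the reference 51 of the 84 were higher and 1 lower, beside the 25.5% and 9.77% of all genes. Between the days 0 of the 84 were called with limma and 2, both target genes, had an unadjusted p under 0.05.

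Of the other receptors, only Tlr3 and Tlr5 had probes. Tlr5, the flagellin receptor, was called higher, but its reference signal was above background on no array, so no size is given. Tlr3, which senses double-stranded RNA, was not called at 0.68. Receptor partners were higher in 7 of 8, led by Ly86 (6.71), which encodes MD-1, and Cd300lf (4.46, and 3.35 with the mean of all its probes). Cd180, the receptor that MD-1 binds, was 2.42 higher, though its reference signal was above background on no array. Genes of receptor folding and trafficking were higher in 7 of 10. Among them were Unc93b1 (3.11), which carries the endosomal receptors out of the endoplasmic reticulum, the chaperone genes Hsp90b1 (1.63) and Cnpy3 (1.07), and the proteases Ctsk (4.51) and Ctsb (4.20), which can cleave those receptors.

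Of the other adaptors 1 of 4 tested was higher, Pik3ap1 (1.56; 0.99 and not called with the mean of all its probes), while Ticam1 lay at 0.89 and Tirap at 0.36. Kinases and ubiquitin ligases were higher in 4 of 18, led by Btk (2.99) and Map3k8 (2.16), both without a reference signal above background on any array. The counts of both groups lay near the 25.5% of all genes called higher. Map3k7, the kinase TAK1, was the gene called lower, at -1.33. Transcription factors were higher in 4 of 8, among them Irf7 and Irf5 (both 3.21), which act downstream of the endosomal receptors. The median log2 ratio was 0.46 for the kinases and ligases, 0.81 for the adaptors and 1.56 for the transcription factors. These groups were not tested against each other.

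Inhibitors were higher in 12 of 15, with a median of 1.61, among them Tyrobp (4.65), Pirb (4.32) and Il1rl1 (4.16). Target genes were higher in 15 of 19. Their median of 2.83 has no secure size, since 10 of the 22 listed target genes, and 6 of the 15 called higher (Tnf, Il6, Il10, Ptgs2, Nos2 and Cd86), had a reference signal above background on no array. Ccl4, a chemokine gene, stood at 6.77 with a reference signal above background on only 1 array, and Acod1, which makes itaconate in macrophages, at 5.42. Il1b reached 5.05. Cxcl10 had a mean of 3.40, with -0.03 in tumor 313 and 2.92 to 4.72 in the other tumors. Cxcl1 and Cxcl2, neutrophil chemokines, were not called, at 0.51 and 0.07.

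**Figure D5:**
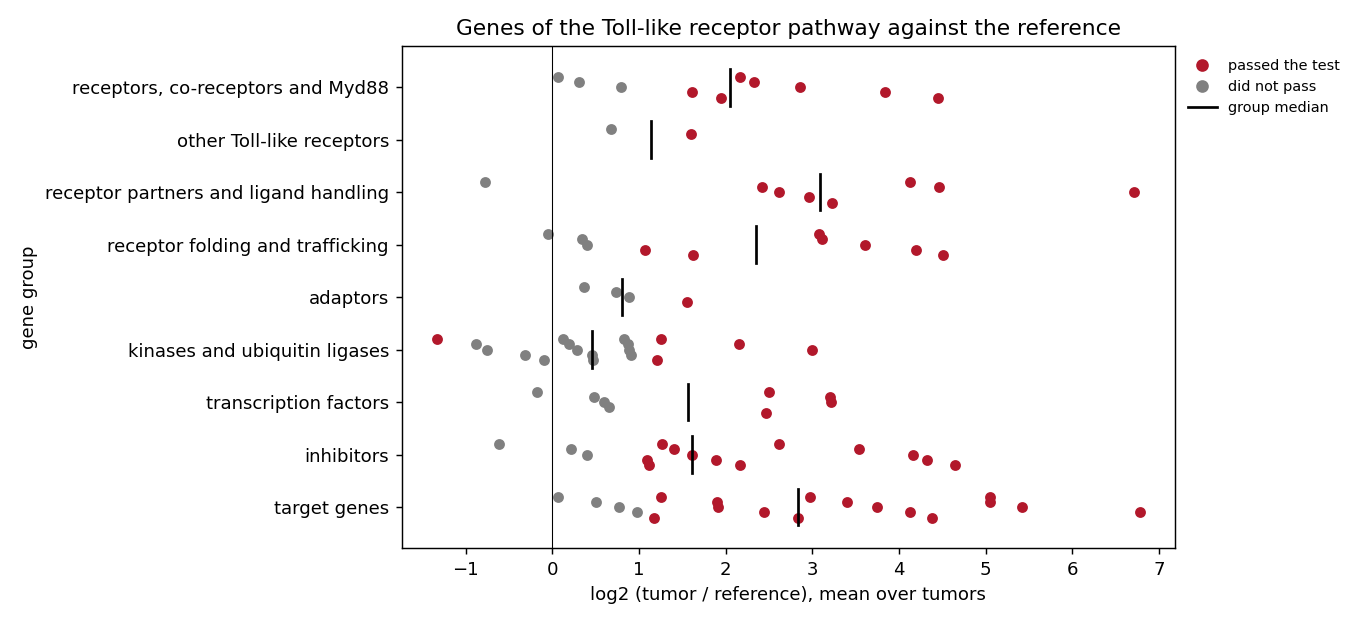
Mean log2 ratio of tumor to reference for each tested gene of the pathway, by group, red where the gene passed the test and grey where it did not, with a black bar at the group's median. Genes without a reference signal above background are plotted at their measured value, which is no secure size. The first row holds the 10 receptor, co-receptor and adaptor genes with the area of lost signal left out. Receptors, partners, inhibitors and target genes lie mostly above 1, and kinases and ubiquitin ligases around 0.46.

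Differences between the days in these groups did not pass the test in any case. The largest were those of the target genes Cxcl10 (-1.73) and Cxcl1 (0.95), and of Cd36 (1.41), a scavenger receptor that passes lipids to Tlr2. Cxcl10 without tumor 313 was -0.45 and without tumor 318 was -2.82. Cd36 was 0.68 without tumor 312, 2.09 without tumor 302 and 0.72 in the tumor channel alone, and Cxcl1 was 0.45 without tumor 318 and 1.45 without tumor 313. In the other groups the differences largest in size were those of Cd180 (-0.44), Ctsk (0.60), Hsp90b1 (0.28), Ticam2 (-0.13), Tirap (-0.12), Btk (0.74), Peli1 (-0.35), Irf7 (-0.60), Rela (0.21), Cd300a (0.59), Sigirr (-0.54), Tlr5 (0.34) and Tlr3 (-0.10). With the area of lost signal left out, Cd300a was 0.19, Btk 0.48 and Tlr5 -0.24.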

How the data were processed

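Tumor RNA (Cy5) and reference RNA (Cy3) were hybridised to 6 arrays, 1 per tumor, with no dye swap. The deposited scanner files come from Agilent Feature Extraction 9.1.3.1 and give, per the file headers, each spot's mean intensity and local background intensity in both dyes, not normalized. The log ratio in those files, log10 of processed Cy5 over Cy3, was background-subtracted and dye-normalized by that software, per the file headers, and the authors' deposited value table holds the same log10 ratios.

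In limma 3.58.1 (R 4.3.3), intensities were corrected with normexp (offset 50) and normalized within arrays by loess (weight 0 for controls and outlier spots). Each array held 45018 spots, 1639 of them controls. Spots of a probe were averaged, and the brightest probe stood for a gene. Probes were named through a RefSeq table (GRCm38.p6), 23374 of 41174 by accession, 6733 by current and 2919 by older symbol, and 8148 kept the array's name. Single dyes were quantile-normalized between arrays. Day 15 was compared with day 10 on probes marked above background in Cy5 by 3 arrays or more, and the average of both day means with 0 on probes so in either dye, by lmFit and eBayes (2-sided, Benjamini-Hochberg over all probes). The reference comparison leaves out the spread of the reference, which the labels describe alike on all arrays. The area of lost signal was found from Cy3 alone, where the local median fell by more than 1 (log2) below the other arrays. The scripts were tested on simulated data.

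The genes and lists were chosen with earlier results of these data known. Named genes are the 10 members, the 2 genes of each pathway group largest in size in each comparison, and the 2 nearest in profile to each member. For Tlr9, 1 of these 2 is not reported here. Those of Tlr8, dim in both dyes, are left out. Others were named after their values were seen (Cd180, markers and target genes named for their background, Unc93b1, Hsp90b1 and Cnpy3 against the reference, Tirap against the reference, Map3k7, Il1rl1, Il1b, Cxcl10, Cxcl1 and Cxcl2 against the reference, Hba-a1). Promoters of 6 members were used. Alternatives were other background corrections, scalings, filters and probe rules, the area left out, Cy5 alone and each tumor left out.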

Additional observations from a re-analysis of the deposited data

Results flagged for a closer look

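Of 26 genes looked at over the 6 tumors, the 10 members and the pathway genes of largest ratio, 1 held a value far from the rest, where chance alone gives about 1 in 20. It was the Tlr7 log2 ratio of tumor 312, at -0.15 against 3.69 to 5.12 in the other tumors, a gap of 0.728 of the whole range. Its only spot lies in the area of lost signal on that array, where both dyes read at background (Cy5 112, Cy3 119).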

How the results depend on the processing

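Of the 10 genes limma called 0 between the days under every alternative run, with an unadjusted p under 0.05 for 2 without tumor 313 and 1 without tumor 318, and against the reference it called 7 with each tumor left out in turn, with 6 after median centring (without Myd88), 6 where a probe had to be above background on all 6 arrays (Tlr7 and Tlr8 then not tested) and 8 when the scanner's own processing or the authors' table was used (with Tlr8). Calls over all genes split into 4154 higher and 1591 lower (72.3% higher), 3231 and 4592 after median centring (41.3%) and 4438 and 3226 with the scanner's processing (57.9%). Between the days 2 genes were called higher and 7 lower, and with 1 tumor left out 0 to 6 and 3 to 24. Against the reference, Tlr4 was -0.69 after median centring, -0.27 with both the scanner's processing and the authors' table and -0.046 to 0.17 with 1 tumor left out, and Ly96 was -0.56 after median centring. Differences between the days turned with median centring for Tlr2 (-0.11), Tlr8 (-0.0100), Tlr9 (-0.089), Ly96 (-0.26), Myd88 (-0.34), Hsp90b1 (-0.14) and Rela (-0.17), in the tumor channel alone for Tlr9 (-0.022), Ly96 (-0.15) and Tlr3 (0.18), with the area of lost signal left out for Tlr5 (-0.24), and with the mean of all probes for Tlr3 (0.13). With 1 tumor left out in turn they ran from -0.45 to 0.13 for Tlr1, -0.087 to 0.53 for Tlr2, -0.28 to 0.13 for Tlr4, -0.070 to 0.26 for Tlr8, -0.066 to 0.24 for Ly96, -0.17 to 0.23 for Myd88, -0.24 to 0.73 for Tlr5, -0.42 to 0.11 for Tlr3, -0.33 to 0.040 for Ticam2 and -0.26 to 0.045 for Tirap. None of these was called, and the cause of the turns was not tested. For single members, 128 alternative values between the days kept sign and side of the threshold and 20 turned, and against the reference 129 kept both, 6 turned, 2 gained a call and 1 lost it. Part of this agreement was fixed in advance. Filters, the mean of all probes and the area left out could not move a value such as that of Tlr1 (-0.15 between the days in each). The authors' table repeats the scanner's processing, so these counts are no measure of robustness. No paired analysis was possible because the tumor numbers are not shared between the days, and the slide as a block could not be fitted because each day lies on 1 slide. Signals near background limit Tlr7 to a bound and leave Tlr8 without a size.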
